A study of Homo sapiens with 12 samples.

Results

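The comparison set the untreated state of the Ewing sarcoma line TC32 against that of the line SKNMC, on 3 vehicle arrays of each line. Its members were all vehicle samples of the series, 6 of 12 arrays, chosen by their labels. A probe was used if it was detected (detection p-value under 0.05) on at least 3 of these 6 arrays, which held for 18706 of 47319 probes and gave 11023 genes. The study as a whole exposed both lines for 48 h to 40 µM NU7441, which blocks the kinase encoded by PRKDC, or to vehicle. It measured total RNA on Illumina BeadChips.

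Ewing sarcoma is a tumour of bone and soft tissue in young people. Its cells carry a fusion of EWSR1, a gene of the FET family of RNA-binding proteins, with an ETS transcription factor gene, most often FLI1. The fusion protein binds GGAA repeats and single ETS sites, switches on a set of neural and other genes, and holds down genes of mesenchymal cells. Lines of this tumour therefore share a core programme and differ in further lesions, such as loss of the cell cycle inhibitor CDKN2A or of the cohesin subunit STAG2.

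Cells of the TC32 group and cells of the SKNMC group received 0.1% (v/v) DMSO for 48 h and no NU7441. Both are established cell lines, each derived from a single tumour, and the medium was RPMI-1640 supplemented with bovine serum. No label states that the 3 replicates of a line were separate cultures, so a p-value here reflects only how far these samples lie apart, and that spread may be technical. The titles of all 6 vehicle samples carry a mark (2) that the labels do not explain. In RNA from whole cultures, fewer cells of a type and less RNA per cell cannot be told apart.

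All levels below are normalized log2 intensities, in which a difference of 1 is a doubling, and every difference is TC32 minus SKNMC. A gene was called when the limma adjusted p was under 0.05 and the log2 difference was at least 1 in size. Each gene was represented by its brightest detected probe. Across genes, the SKNMC arrays correlated at 0.9927 to 0.9935 with each other and the TC32 arrays at 0.982 to 0.9925, the lowest values being those of TC32 replicate 3 with the other two. Arrays of different lines correlated at 0.9476 to 0.9555. Between 18389 and 20148 probes were detected on each of these arrays. The SD exceeded 0.5 for 221 genes among the TC32 arrays and for 8 among the SKNMC arrays. TC32 replicate 3 is pointed out below for some of these genes only. Named genes without such a remark whose TC32 SD exceeded 0.5, with replicate 3 apart, include COL16A1, CXCR4, HOXB2, MEG3, NKD2 and TUBB3.

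An observation on the SKNMC arrays bears on genes higher in TC32 and is given first. A set of 296 probes for 236 genes, picked after the data had been examined, was detected at p under 0.01 on all 6 TC32 arrays of the series and was not detected on replicates 2 and 3 of SKNMC under NU7441. On the 3 SKNMC vehicle arrays 282, 284 and 286 of these probes were detected, and on SKNMC NU7441 replicate 1 there were 259. Over the 96 of them with a background-corrected signal of at least 100, the median on the SKNMC vehicle arrays was 36.9%, 33.9% and 39.9% of the TC32 vehicle mean. It was 17.1% on SKNMC NU7441 replicate 1, and 1.35% and 1.53% on replicates 2 and 3. On the TC32 NU7441 arrays the same median was 30.5%, 39.3% and 23.1%, so the set was also dimmer there than on the TC32 vehicle arrays. The absence from replicates 2 and 3 was fixed by the choice of the set, whereas its presence on the other SKNMC arrays was not.

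Signal of SKNMC's own genes, lost on those NU7441 arrays, and RNA of another source on the other SKNMC arrays cannot be told apart here. A set picked the other way is no mirror of the first, because absence was required on every TC32 NU7441 array. Probes with signal on all TC32 arrays could therefore not enter it, and the sets do not compare the lines. Of 158 probes detected on all 6 SKNMC arrays and on no TC32 NU7441 array, 41, 48 and 35 were detected on the TC32 vehicle arrays, with median signals of 2.37%, 1.94% and 2.24% of the SKNMC vehicle mean over the 18 bright ones. Among the 211 genes called higher in TC32, 71 (33.6%) belonged to the 236-gene set, and 1 gene of the set was called higher in SKNMC. That is 30.1% of the set called higher in TC32, beside 1.91% of all genes tested. The set was picked by signal on the TC32 arrays and absence from SKNMC arrays, so its choice favoured this direction. Differences of genes in the set are those between the arrays as labelled. Genes named below as higher in TC32 that were detected on all SKNMC vehicle arrays but on neither SKNMC NU7441 replicate 2 nor 3 were ABCA1, ATP5MK, BMP7, CASP1, CDH10, CEACAM6, CES1, CXCL14, CXCL16, CXCR4, DKK1, DLX5, FRZB, HEY1, HOXB2, ITPRIPL2, KCNS3, MX2, NTM, NTRK2, PCDH7, PSMB8, SEMA3A, SSX2, SSX3 and TWIST2.

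**Figure D1:**
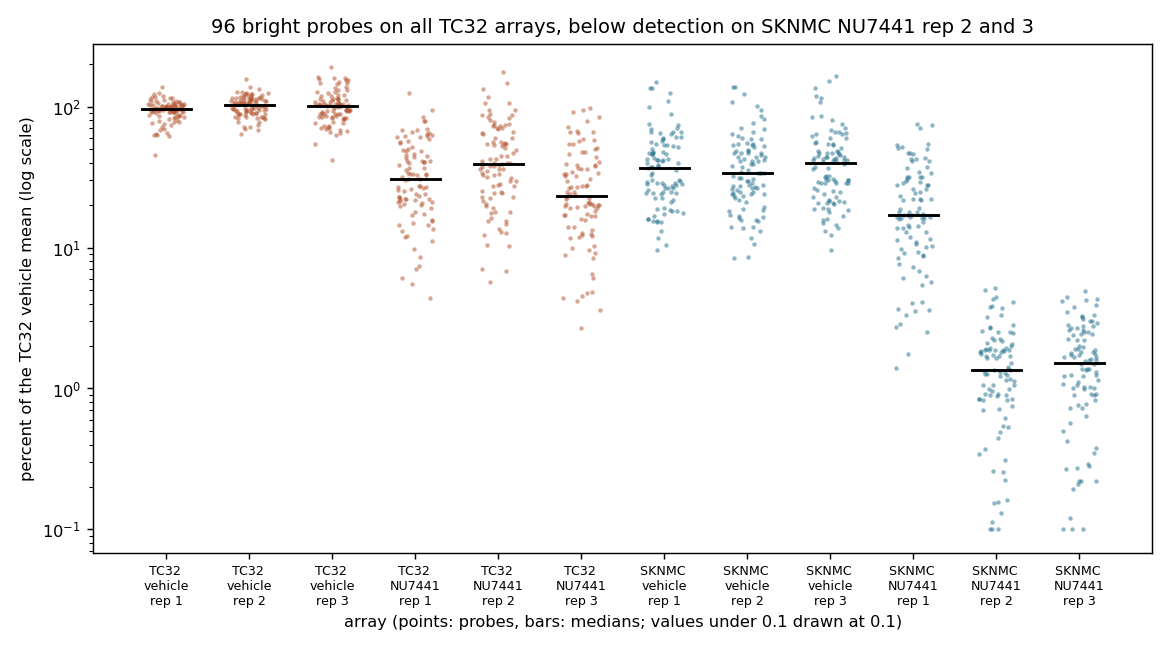
Background-corrected signal of 96 bright probes on each of the 12 arrays, as percent of the mean over the 3 TC32 vehicle arrays (log scale). Each point is a probe and each bar a median; the SKNMC vehicle medians lie at 33.9% to 39.9% those of TC32 NU7441 at 23.1% to 39.3% and those of SKNMC NU7441 replicates 2 and 3 at 1.35% and 1.53%.

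Both lines had the markers of Ewing sarcoma. CD99, NKX2-2, BCL11B, STEAP1, LIPI, PRKCB, FLI1 and EWSR1 were detected on all 3 arrays of each line, which is 8 of 8 markers. The endothelial markers PECAM1, VWF and CDH5 were detected on no array. Of the leukocyte markers PTPRC, CD3E and CD53 were detected on no array, and only CD79A was detected on all. PHOX2A, DBH and TH, which mark neuroblastoma, were detected on no array, while HAND2 was detected on all. Of 5 fibroblast markers, 1 was detected on every TC32 array (THY1) and 5 on every SKNMC array. Their summed level above the offset was 64.6 to 102 intensity units on the TC32 arrays and 741 to 929 on the SKNMC arrays.

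In all, 592 of 11023 genes were called (5.37%), which is the share to set beside the calls of each list below. Of these 211 were higher in TC32 (1.91% of the genes tested) and 381 in SKNMC (3.46%). The balance depended on the scaling of the arrays: without between-array normalization 287 and 337 genes were called, so that 46.0% of the calls were higher in TC32 against 35.6% here. Differences were small for most genes, since 78.2% lay within 0.5 of 0 on the log2 scale and the median was -0.01. Values of the lines did not overlap for 4823 genes (43.8%), and 3404 genes (30.9%) passed the adjusted p alone.

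Between the arrays as labelled, the large differences lay on the SKNMC side. The set of 296 probes described above had signal on the SKNMC vehicle arrays, and its part in the counts given here was not tested. A log2 difference of 2 or more was called for 17 genes higher in TC32 and for 99 higher in SKNMC, and one of 3 or more for 0 and 33. The extremes were 2.98 for MERTK and -5.41 for CCND2, the latter on a probe that 1 of 3 TC32 arrays detected. Without TC32 replicate 3 the lowest value was -6.06, for MBD3L5, with CCND2 at -5.61. Genes detected on every array gave a more even split, with 195 and 223 calls of 9210 (4.54% in all). At the other end, 209 genes were detected at p under 0.01 on all SKNMC arrays and were below detection on every TC32 array, of which 89 were called. The corresponding number for TC32 was 16, of which 4 were called. For such genes only a lower bound of the fold is given, the bright line's mean against the lowest detected signal or the gene's own signal, whichever was higher, on each dim array. A difference printed for a gene that only some arrays of the dim line detected rests partly on signal at background. Of the genes named, CCND2, CDH12, DKK3, HLA-DMA, LEF1, MTAP, TFAP2B and TGFB2 were detected on 1 TC32 array by their brightest probe. COL1A1, EFNA1, EPHA3, ETV5, MBD3L5, NKD2, PAX7 and PRRX1 were detected on 2. Over all probes CCND2 was detected on 2 TC32 arrays and DKK3 on 3. IL33 was detected on 1 SKNMC array and CACNG3 on 2.

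**Figure D2:**
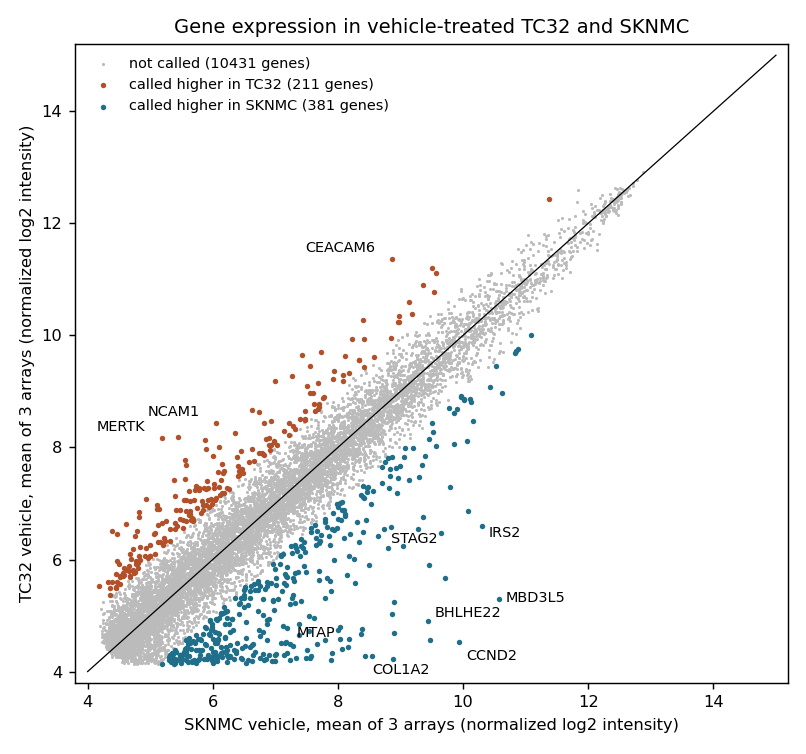
Mean normalized log2 intensity of 11023 genes over 3 TC32 vehicle arrays (vertical) and 3 SKNMC vehicle arrays (horizontal), with the line of equal values. The 381 genes called higher in SKNMC reach farther from the line than the 211 called higher in TC32, many of them at the lower limit of the TC32 axis. Arrays are grouped as labelled, and the part of the set of 296 probes described above was not tested.

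Neither partner of the fusion was called, nor were the diagnostic markers CD99 and NKX2-2. EWSR1 stood at 9.0, 9.12 and 9.31 in TC32 and at 9.12, 9.29 and 9.26 in SKNMC, a difference of -0.08 ± 0.13 (SE, n = 3 and 3; limma adjusted p = 0.687) that was 0.13 without between-array normalization. FLI1 read 5.92, 6.05 and 5.91 in TC32 and 5.42, 5.60 and 5.35 in SKNMC, 0.50 ± 0.12 apart with no overlap but under the fold minimum (limma adjusted p = 0.00798). CD99, the cell surface glycoprotein used in diagnosis, differed by 0.35 ± 0.12 (limma adjusted p = 0.0401). NKX2-2, a homeodomain factor and mediator of the fusion, differed by -0.29 ± 0.14 (limma adjusted p = 0.141). Probes for EWSR1 and FLI1 may also read the fusion transcript, depending on where they lie, so these levels are not those of the normal alleles alone.

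Of 14 genes of Ewing identity tested, 2 were called and both were higher in SKNMC. STEAP1, a metalloreductase of the cell surface, read 8.78, 8.99 and 8.66 in TC32 and 10.07, 10.16 and 10.14 in SKNMC (-1.32 ± 0.13, limma adjusted p = 7.60e-06). CDH11, a mesenchymal cadherin, differed by -1.21 ± 0.13. The groups did not overlap for either gene, and the other STEAP1 probes differed by -0.94 and -1.02. The median of the list was -0.09, and 0.19 without between-array normalization, beside -0.01 for all genes tested. BCL11B, a zinc finger repressor, was at -0.90 ± 0.13 and so under the fold minimum.

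Targets that the fusion is known to activate gave 0 calls for TC32 and 8 for SKNMC among 37 tested. PPP1R1A, a protein phosphatase inhibitor, read 6.12, 6.44 and 6.16 in TC32 and 9.02, 9.09 and 8.98 in SKNMC, the widest difference of the list at -2.80 ± 0.13 (limma adjusted p = 8.08e-09). The remaining calls were NPY5R (-1.71 ± 0.14), FCGRT (-1.64 ± 0.19), JARID2 (-1.51 ± 0.13), STEAP2 (-1.30), CCK (-1.12), STEAP1 and CDH11. NPY5R is a receptor of neuropeptide Y and CCK encodes the peptide cholecystokinin. JARID2 is a cofactor of the polycomb repressive complex. All 8 were detected on each of the 6 arrays and did not overlap between the lines, yet the list median was only -0.17, and near 0 (-0.0035) without between-array normalization. With the mean of its probes NPY5R stood at -0.89 and was not called. NPY, the gene of the ligand of NPY5R, was below detection on the TC32 arrays and at least 2.97-fold higher in SKNMC.

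The fusion's binding motif is why the promoter of STEAP1 is printed here, from RefSeq (GRCh38.p14), as 250 bases before to 50 bases after the annotated start, read along the gene's strand from 5′ to 3′. It lies at chr7:90154219-90154518 on the + strand, and capitals mark each GGAA or its complement TTCC, of which it holds 4.
STEAP1: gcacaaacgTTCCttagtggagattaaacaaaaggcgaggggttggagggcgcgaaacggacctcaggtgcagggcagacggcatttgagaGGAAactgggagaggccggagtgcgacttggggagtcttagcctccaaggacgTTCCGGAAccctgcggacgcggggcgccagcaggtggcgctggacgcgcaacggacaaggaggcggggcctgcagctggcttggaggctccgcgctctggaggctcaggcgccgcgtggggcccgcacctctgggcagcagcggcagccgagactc
Such short matches are common: 95.3% of the 8884 tested genes with a promoter in the table held GGAA or TTCC in the same window. A match to the tandem form GGAAGGAA or TTCCTTCC was found for 3.28% of them, for 2.65% of 151 genes called higher in TC32 and for 5% of 280 called higher in SKNMC. Both strands were searched, and a promoter was scored only as holding a match or not. Among 26 activated targets with a promoter, 80.8% held the short motif.

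Genes that the fusion is known to repress were divided between the lines, with 3 called higher in TC32 and 9 higher in SKNMC among 24. Those of SKNMC were mostly extracellular matrix genes. COL1A2, a chain of type I collagen, read 4.27, 4.26 and 4.28 in TC32 and 8.22, 8.71 and 8.39 in SKNMC. On that probe the gene was below detection in TC32 and at least 15.6-fold higher in SKNMC, and its other probe, detected on 2 TC32 arrays, differed by -3.17. On leaving out any SKNMC array the other probe stood for COL1A2, at -3.26 to -3.14. DCN and LUM, small leucine-rich proteoglycans of matrix, were at least 8.08-fold and 5.17-fold higher in SKNMC, although a further DCN probe outside the filter was detected on 1 TC32 array. COL1A1 followed at -2.41 ± 0.16 and LOX, the collagen crosslinking enzyme, at -1.77 ± 0.15.

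CCN1, a matricellular protein that responds to growth factors, was also in this group but varied within TC32. It read 5.01, 5.18 and 7.52 there and 8.28, 8.49 and 8.72 in SKNMC, so the groups did not overlap and the difference was -2.60 ± 0.48 (limma adjusted p = 0.00138), a call lost with an intensity-dependent and robust prior. Without TC32 replicate 3 the CCN1 difference was -3.38. The TC32 side held DKK1, TNC and S100A6. DKK1, a secreted Wnt antagonist, read 6.93, 6.89 and 9.48 in TC32 and 5.62, 5.48 and 5.56 in SKNMC (2.22 ± 0.50, limma adjusted p = 0.00494). Without TC32 replicate 3 the DKK1 difference was 1.34 and still called. TNC, the matrix protein tenascin C, was at 1.52 ± 0.18 and S100A6, a calcium-binding protein, at 1.55 ± 0.13.

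Mesenchymal and collagen genes were called as higher in SKNMC alone. Of 23 mesenchymal genes tested, 0 were called higher in TC32 and 7 in SKNMC (median -0.37), and of 16 collagen genes 0 and 6 (median -0.78). These lists share calls with each other and with the repressed genes above, so the counts are not separate. COL1A1 and COL1A2 are in all of them, and DCN is in the repressed and mesenchymal lists. COL16A1, a minor fibril-associated collagen, was at -2.68 ± 0.21 and COL4A1, of basement membranes, at -1.35 ± 0.14. TGFBI, an adhesion protein induced by TGF-beta, read 9.86, 10.00 and 10.13 in TC32 and 11.04, 11.12 and 11.08 in SKNMC (-1.08 ± 0.12). That TGFBI call was lost without between-array normalization (-0.78). In the normalization of all 12 arrays TGFBI read 10.89 on SKNMC NU7441 replicate 1 and 5.07 and 4.60 on replicates 2 and 3. TGFBI had been fixed by name because it stood apart on the NU7441 arrays in earlier results. ACTA2, smooth muscle actin, differed by -0.45 ± 0.11 and was under the fold minimum. MFAP4, a microfibril-associated protein, and PLOD2, a lysyl hydroxylase that modifies collagen, ranked among the 10 widest differences of genes detected on all arrays. MFAP4 stood at -4.05 ± 0.12. PLOD2 was at -3.62 ± 0.14 on its brightest probe and at -0.77 and -0.13 on its other probes. The fibroblast markers given above belong to these lists, and whether other cells had a part in the difference was not tested.

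Neural crest factors gave the list most often called in SKNMC by share, with 7 of 15 tested (median -0.97) against 1 for TC32. TFAP2B, a factor of early crest cells, read 4.41, 4.31 and 5.04 in TC32 and 8.01, 8.24 and 8.29 in SKNMC (-3.60 ± 0.18, limma adjusted p = 1.81e-08). It was detected on 1 TC32 array. TWIST1, a basic helix-loop-helix factor of mesoderm and crest, read 6.27, 6.46 and 6.69 in TC32 and 9.75, 9.65 and 9.55 in SKNMC (-3.18 ± 0.14). Its relative TWIST2 went the other way, at 5.94, 6.15 and 6.22 in TC32 and 4.62, 4.66 and 4.72 in SKNMC (1.44 ± 0.12, limma adjusted p = 2.87e-06). So the TWIST genes differed in opposite directions and neither overlapped between lines.

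The other crest genes were PRRX1 (-2.64 ± 0.14), a homeobox factor of limb and craniofacial mesenchyme, PAX7 (-2.58 ± 0.14), a paired-box factor of crest and muscle stem cells, SNAI2 (-1.22 ± 0.12), SOX8 and HAND1. SOX8 was below detection in TC32 and at least 4.59-fold higher in SKNMC, and HAND1 at least 1.81-fold. PAX7's other probe differed by -0.42. The wider set of homeobox and other developmental factors outside the HOX clusters had 1 call for TC32 and 14 for SKNMC among 91. SOX18, a factor of vascular development, read 4.67, 4.82 and 4.55 in TC32 and 8.85, 8.89 and 8.94 in SKNMC (-4.21 ± 0.12, limma adjusted p = 1.82e-10). The homeobox factors IRX2, at least 4.26-fold higher in SKNMC, and IRX3 (-2.15 ± 0.12) were on the same side. DLX5, a distal-less homeobox factor of bone and craniofacial development, was the exception at 1.59 ± 0.12. BHLHE22, a helix-loop-helix factor of neurons, belonged to no list and read 4.85, 5.05 and 4.82 in TC32 and 9.46, 9.48 and 9.36 in SKNMC (-4.53 ± 0.12).

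Genes of the HOX clusters, which set position along the body axis, were called higher in TC32 in 4 cases and in SKNMC in 1 of 21 (median 0.43). HOXB2 read 8.0, 8.20 and 9.11 in TC32 and 7.02, 6.89 and 6.56 in SKNMC (1.61 ± 0.24). HOXB5 was at 1.10 ± 0.13. The other HOX calls were lost on leaving out single arrays: HOXB8 (1.42 ± 0.30) was at 0.96 without TC32 replicate 3, and HOXD4 (1.03 ± 0.17) and HOXC13 (-1.01 ± 0.14) lost their calls on leaving out any of several arrays.

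**Figure D3:**
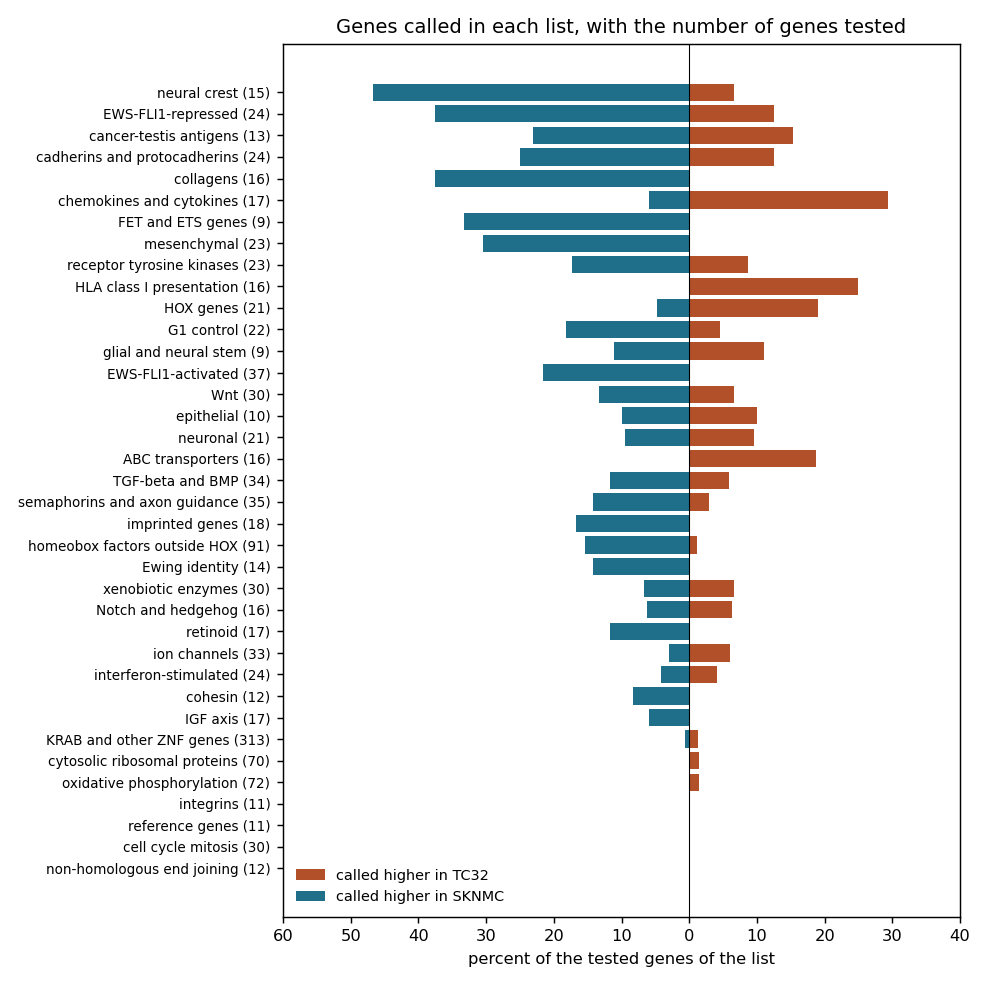
Percent of the tested genes of each list that were called, with bars to the right for genes higher in TC32 and to the left for genes higher in SKNMC; the number tested follows each list's name. Neural crest genes (7 of 15) extend farthest to the left among these lists, and chemokines and cytokines (5 of 17) farthest to the right.

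Among cell cycle entry genes the D-type cyclins differed unequally. CCND2, cyclin D2, read 4.29, 4.30 and 5.0 in TC32 and 9.93, 9.92 and 9.95 in SKNMC (-5.41 ± 0.17, limma adjusted p = 5.27e-10). This probe was detected on 1 of 3 TC32 arrays. A further CCND2 probe, detected on 2 TC32 arrays, differed by -4.08. CCND1, cyclin D1 and a known target of the fusion, stood at 11.39, 11.53 and 11.34 in TC32 and at 11.64, 11.42 and 11.47 in SKNMC. Its values overlapped (-0.09 ± 0.12, limma adjusted p = 0.634), and the sign turned without between-array normalization (0.25). The lines thus differed in the D2 cyclin while D1 was not separated from the replicate spread. CCND3 was at -0.59 ± 0.12, under the fold minimum.

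CDKN2A, which encodes the cell cycle inhibitors p16INK4a and p14ARF, was below detection on every TC32 array. It read 4.22, 4.32 and 4.18 there and 6.88, 6.92 and 6.49 in SKNMC, at least 4.86-fold higher (limma adjusted p = 4.71e-08). Its other detected probe differed by -1.81 and was likewise below detection in TC32. MTAP, the methionine salvage enzyme encoded by the adjacent gene, read 4.40, 4.41 and 4.64 in TC32 and 7.20, 7.16 and 7.33 in SKNMC (-2.74 ± 0.13, limma adjusted p = 8.08e-09), with detection on 1 TC32 array. These neighbours on chromosome 9 are known to be lost together in many tumours. On the NU7441 arrays, which took no part in the comparison, CDKN2A was detected on 0 of 3 TC32 arrays and on 3 of 3 SKNMC arrays, and MTAP on 1 of 3 and 3 of 3.

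The order of neighbouring genes was taken from RefSeq. CDKN2B, on the other side of CDKN2A, was detected on 1 TC32 and 2 SKNMC arrays and differed by -0.08 ± 0.12, too dim in both lines for a difference to be seen. KLHL9, a ubiquitin ligase adaptor whose gene lies among the interferon genes, was detected on all arrays at 0.50 ± 0.12, and FOCAD and MLLT3, farther on the same side, at 0.18 ± 0.15 and 0.11 ± 0.16. The interferon alpha genes of this stretch were detected on no TC32 array. On the SKNMC arrays IFNA7 was detected on 2, IFNA14 and IFNA8 on 1 each, and the others on none. CAAP1, beyond CDKN2B, was detected on all arrays at 0.16 ± 0.14. Among the genes of this stretch that were tested, MTAP and CDKN2A alone were called. Copy number was not measured.

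The promoters of this pair are shown because both genes were near or below detection in TC32. They come from RefSeq (GRCh38.p14) in the same window as above, MTAP from chr9:21802386-21802685 on the + strand and CDKN2A from chr9:21995275-21995574 on the - strand, with each GGAA or TTCC in capitals.
MTAP: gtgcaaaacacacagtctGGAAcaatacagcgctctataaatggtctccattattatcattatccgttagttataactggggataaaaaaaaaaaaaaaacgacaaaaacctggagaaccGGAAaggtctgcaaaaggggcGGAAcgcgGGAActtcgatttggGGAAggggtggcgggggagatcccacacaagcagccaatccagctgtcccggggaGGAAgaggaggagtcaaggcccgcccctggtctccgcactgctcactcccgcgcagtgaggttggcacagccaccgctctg
CDKN2A: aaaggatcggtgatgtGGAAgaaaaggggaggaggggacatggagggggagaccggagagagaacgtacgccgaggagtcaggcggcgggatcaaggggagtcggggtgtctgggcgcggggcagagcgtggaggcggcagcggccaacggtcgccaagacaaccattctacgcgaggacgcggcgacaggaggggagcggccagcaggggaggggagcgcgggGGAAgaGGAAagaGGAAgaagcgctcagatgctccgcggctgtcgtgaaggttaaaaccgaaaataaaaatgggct
The MTAP window held 15 CG dinucleotides and the CDKN2A window 28, beside a median of 26 over the 8884 tested genes with a promoter. The CDKN2A window belongs to the start that the table lists, and the gene has a further start that is not shown. Promoters with fewer than 10 CG were found for 11.2% of the tested genes, 25.8% of those called higher in TC32 and 23.6% of those called higher in SKNMC. Among genes restricted to SKNMC with a promoter in the table the share was 29.9%.

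The remaining genes of G1 control that were called were CDKN1A and E2F5. CDKN1A, the cyclin-dependent kinase inhibitor p21, read 7.48, 7.52 and 6.79 in TC32 and 6.0, 5.69 and 5.973 in SKNMC (1.38 ± 0.18, limma adjusted p = 0.000126). E2F5, a transcription factor of cell cycle genes, was at -1.05 ± 0.13, a call lost without between-array normalization (-0.80). RB1, the retinoblastoma protein gene, was at -0.53 ± 0.14, MYC at -0.94 ± 0.17 and MYCN at -0.00089 ± 0.12. Of 30 mitotic genes 0 were called (median 0.03), with differences from -0.85 to 0.83.

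STAG2, the cohesin subunit most often mutated in this tumour, was lower in TC32. Its brightest probe read 6.60, 6.23 and 6.80 in TC32 and 8.70, 8.73 and 8.77 in SKNMC (-2.19 ± 0.15, limma adjusted p = 2.94e-07), with no overlap. A dim STAG2 probe, detected on 1 TC32 and 2 SKNMC arrays, differed by -0.12, and the mean of the probes by -1.15. On the NU7441 arrays, in a normalization of all 12 arrays, the brightest probe read 6.33, 6.19 and 6.85 in TC32 and 8.57, 8.90 and 8.95 in SKNMC, so the lines were separated there too. STAG1, the paralogous subunit, stood at 6.99, 7.01 and 7.21 in TC32 and at 7.24, 7.11 and 7.22 in SKNMC (-0.12 ± 0.12, limma adjusted p = 0.499). Of 12 cohesin genes tested STAG2 was the only call (8.33%, beside 5.37% of all genes tested). RAD21, which closes the cohesin ring, was at 0.57 ± 0.13 and SMC3 at 0.12 ± 0.17.

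Genes higher in TC32 and detected on all arrays were led by MERTK, a receptor tyrosine kinase that recognises dying cells. It read 8.12, 8.19 and 8.17 in TC32 and 5.02, 5.38 and 5.14 in SKNMC (2.98 ± 0.13, limma adjusted p = 5.03e-09), and its other probe differed by 2.20. MERTK was also detected on SKNMC NU7441 replicates 1 and 2 and not on replicate 3. Its RefSeq promoter (GRCh38.p14, chr2:111898357-111898656, + strand) is shown as that of the widest difference on this side, with each of its 3 GGAA or TTCC in capitals.
MERTK: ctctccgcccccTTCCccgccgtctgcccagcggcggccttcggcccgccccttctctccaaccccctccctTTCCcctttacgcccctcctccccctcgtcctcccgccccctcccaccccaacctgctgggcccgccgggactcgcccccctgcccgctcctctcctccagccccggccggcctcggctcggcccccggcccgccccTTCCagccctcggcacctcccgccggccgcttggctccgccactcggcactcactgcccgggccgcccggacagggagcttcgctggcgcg
The window was dense in CG dinucleotides, with 32 against the median of 26 given above.

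SEMA3A, a secreted repellent of axons, read 8.09, 8.29 and 8.20 in TC32 and 5.48, 5.44 and 5.43 in SKNMC (2.74 ± 0.12). CEACAM6, an adhesion molecule of epithelia and granulocytes, read 11.40, 11.30 and 11.39 in TC32 and 8.71, 8.90 and 8.99 in SKNMC (2.50 ± 0.12). NCAM1, the neural cell adhesion molecule, read 8.58, 8.64 and 8.10 in TC32 and 6.21, 5.89 and 6.05 in SKNMC (2.39 ± 0.16). No overlap between the lines was required of the genes in this ranking. NCAM1's dimmer probes differed by 0.49 and 0.29, and the mean of its probes by 1.06. Of the SKNMC NU7441 arrays, replicate 1 alone detected SEMA3A and CEACAM6, and replicates 1 and 3 detected NCAM1.

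The rest of the 10 were ITPRIPL2 (2.26 ± 0.19), SCG2 (2.22 ± 0.14), DKK1, NTM (2.19 ± 0.16), ABCA1 (2.14 ± 0.15) and CASP1 (2.12 ± 0.12). SCG2 encodes secretogranin II of dense-core vesicles, NTM the neural adhesion molecule neurotrimin, ABCA1 a cholesterol exporter and CASP1 the protease of inflammasomes. ABCA1 read 7.13, 7.23 and 6.87 in TC32 and 4.84, 4.78 and 5.19 in SKNMC, and was detected on no NU7441 array of either line. SCG2 was detected on every array of the series. CASP1 was detected on no SKNMC NU7441 array.

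**Figure D4:**
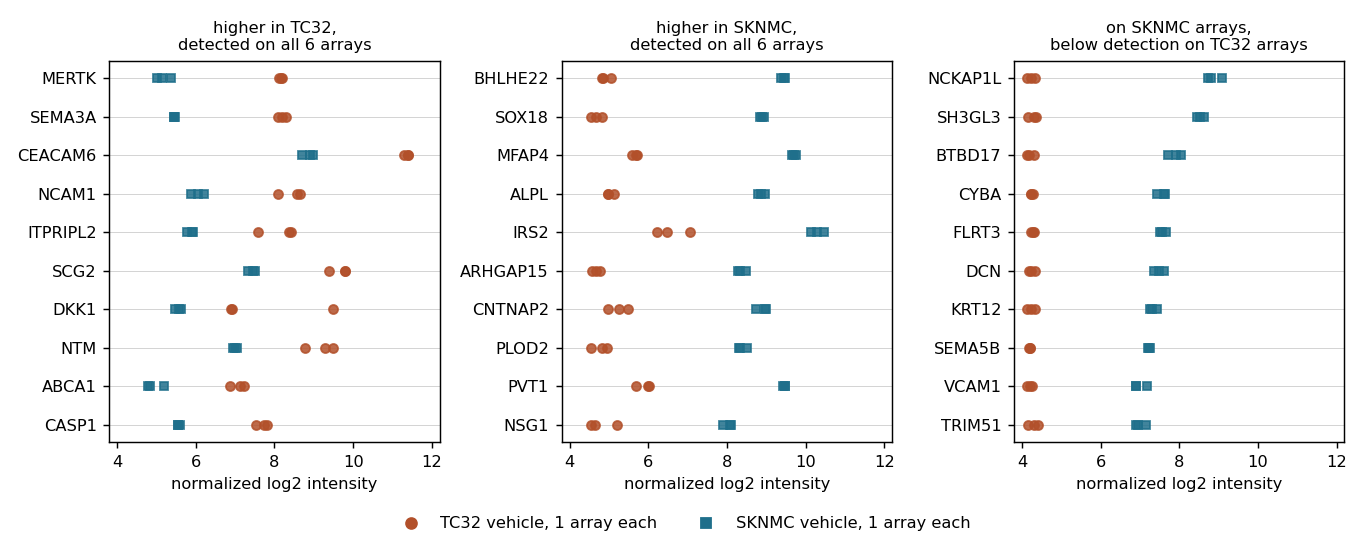
Normalized log2 intensity on each vehicle array, circles for the 3 TC32 arrays and squares for the 3 SKNMC arrays, for the 10 widest differences in each direction among genes detected on all 6 arrays and for 10 genes on the SKNMC arrays that were below detection in TC32. No overlap between the lines was a condition for a gene to be shown. DKK1 on TC32 replicate 3 and IRS2 show the spread within TC32.

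On the SKNMC side the 10 widest differences of genes detected on all arrays were BHLHE22, SOX18, MFAP4, ALPL (-3.84 ± 0.12), IRS2 (-3.71 ± 0.19), ARHGAP15 (-3.70 ± 0.12), CNTNAP2 (-3.66 ± 0.15), PLOD2, PVT1 (-3.55 ± 0.13) and NSG1 (-3.24 ± 0.16). ALPL, tissue-nonspecific alkaline phosphatase and a marker of osteoblasts, read 4.98, 4.98 and 5.13 in TC32 and 8.96, 8.87 and 8.78 in SKNMC. IRS2, an adaptor of the insulin and IGF1 receptors, read 6.23, 6.46 and 7.07 in TC32 and 10.13, 10.28 and 10.47 in SKNMC. PVT1, a long non-coding RNA, read 5.99, 6.01 and 5.70 in TC32 and 9.47, 9.42 and 9.47 in SKNMC. Under NU7441, in the normalization of all 12 arrays, PVT1 was at 8.85 on SKNMC replicate 1 and at 6.15 and 6.13 on replicates 2 and 3. CNTNAP2 is a neurexin-like adhesion molecule of axons. IRS2 was the only call among 17 genes of the IGF axis (5.88%, near the 5.37% of all genes tested). Ewing sarcoma cells are known to depend on this growth pathway. IGF1R was near the detection limit (0.24 ± 0.15), IGF1 was below detection in TC32, and IGFBP3 read 4.42, 4.68 and 6.60 in TC32 and 5.95, 5.65 and 5.60 in SKNMC, overlapping. The IGFBP3 overlap rested on TC32 replicate 3: the difference was -0.50 with it, and -1.18 and called without it.

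Genes restricted to SKNMC were led by NCKAP1L, an actin regulator known from blood cells, at 4.14, 4.22 and 4.32 in TC32 and 9.08, 8.74 and 8.80 in SKNMC, at least 21.0-fold higher. SH3GL3, an endophilin of membrane traffic, followed at 4.36, 4.16 and 4.30 against 8.64, 8.52 and 8.46, at least 16.7-fold higher. BTBD17 was at least 10.7-fold, FLRT3 8.57-fold and CYBA 8.46-fold higher. CYBA is a subunit of the phagocyte NADPH oxidase and FLRT3 an adhesion protein of axon guidance. KRT12, a keratin known from cornea, was at least 7.24-fold, SEMA5B 6.73-fold, TRIM51 5.73-fold and VCAM1 5.71-fold higher. VCAM1, a vascular adhesion molecule, had another probe at -0.22. None of these was detected on a TC32 vehicle array, and NCKAP1L, FLRT3, CYBA, KRT12 and VCAM1 were also detected on 0 of 3 TC32 and 3 of 3 SKNMC arrays under NU7441. Under NU7441, SH3GL3 was detected on 2 TC32 arrays, BTBD17 and SEMA5B on 1 each, and TRIM51 on no array of either line. The 6 leukocyte markers summed to 24.7 to 34.8 intensity units above the offset on the TC32 arrays and to 136 to 151 on the SKNMC arrays. Most of the sum on the SKNMC arrays came from CD79A alone, with means of 4.82 in TC32 and 7.12 in SKNMC. CD79A was the only one of the markers detected on every array, and PTPRC, CD3E and CD53 were detected on none. The part of these markers in the result was not tested.

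Only 4 genes restricted to TC32 were called, all of them dim. CALCA, the gene of calcitonin and CGRP, read 5.92, 6.18 and 4.71 in TC32 and 4.17, 4.40 and 4.41 in SKNMC, at least 2.24-fold higher on this probe, while a further probe outside the filter was detected on 1 SKNMC array. LGALS7B, a galectin that has a near-identical paralog, was at least 2.13-fold, PNOC, the nociceptin precursor, 2.08-fold and LRFN2, a synaptic adhesion molecule, 1.89-fold higher. The LRFN2 call was lost on leaving out SKNMC replicate 2 (0.99). CALCA, LGALS7B and PNOC were lowest on TC32 replicate 3.

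Antigen presentation genes of HLA class I were called higher in TC32 in 4 cases and in SKNMC in 0 of 16 (median 0.58, and 0.79 without between-array normalization). HLA-B, a heavy chain, read 8.78, 8.86 and 8.25 in TC32 and 6.79, 6.71 and 6.71 in SKNMC (1.89 ± 0.16, limma adjusted p = 2.18e-06). HLA genes are similar in sequence and differ between people, so a probe's signal also depends on the alleles of each line. PSMB8, an immunoproteasome subunit, was at 1.76 ± 0.17, with its other probes at 0.28 to 1.31. The peptide transporter genes TAP2 and TAP1 were at 1.23 ± 0.14 and 1.10 ± 0.16, but TAP2 was at 0.71 by the mean of its probes and TAP1 at 0.98 without SKNMC replicate 3. B2M, the common light chain, was at 0.54 ± 0.14 and HLA-E at 0.61 ± 0.14, under the fold minimum. HLA-DMA, of the class II pathway, went the other way at -2.83 ± 0.14, with detection on 1 TC32 array.

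Interferon-stimulated genes gave 1 call for each line among 24 (median 0.24). MX2 was at 1.00 ± 0.14, a call lost on leaving out several single arrays, and IFI44 was at least 4.47-fold higher in SKNMC. Chemokines and cytokines gave 5 calls for TC32 and 1 for SKNMC among 17. IL33, an alarmin cytokine, read 6.15, 6.35 and 7.01 in TC32 and 4.33, 4.29 and 4.53 in SKNMC (2.12 ± 0.19), with detection on 1 SKNMC array. CXCR4, a chemokine receptor linked to metastasis, read 9.70, 9.80 and 8.86 in TC32 and 7.56, 7.42 and 7.67 in SKNMC (1.90 ± 0.21). CXCL14 (1.54 ± 0.17), CXCL16 (1.38 ± 0.15) and TNFSF13B (1.24 ± 0.12) were the other calls, and CXCL10 was at least 1.93-fold higher in SKNMC.

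Receptor tyrosine kinases were called for TC32 in 2 and for SKNMC in 4 of 23 cases. Beside MERTK, the neurotrophin receptor NTRK2 was higher in TC32 (1.16 ± 0.18). FGFR3, a fibroblast growth factor receptor, read 5.59, 5.58 and 5.14 in TC32 and 7.82, 8.09 and 7.78 in SKNMC (-2.46 ± 0.15). The Eph receptors EPHA3 (-2.11 ± 0.16), EPHB3 (at least 2.33-fold) and EPHB1 (at least 2.14-fold) were higher in SKNMC, as was the ephrin ligand EFNA1 (-2.81 ± 0.14). Among 35 semaphorin and axon guidance genes 1 was called for TC32, SEMA3A, and 5 for SKNMC, SEMA5B, EFNA1, SEMA6A (-2.03 ± 0.13), SLIT2 (-1.37 ± 0.13) and UNC5A. SEMA3A and SEMA5B are both ligands of axon guidance and lay on opposite sides.

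Wnt genes were called for TC32 in 2 and for SKNMC in 4 of 30 cases. The extracellular antagonists DKK1 and FRZB (2.04 ± 0.19) were higher in TC32, while DKK3, a secreted protein of the Dickkopf family, was higher in SKNMC (-1.12 ± 0.12). LEF1, a nuclear effector of the pathway, read 4.22, 4.50 and 4.18 in TC32 and 7.04, 7.13 and 7.26 in SKNMC (-2.84 ± 0.13), with detection on 1 TC32 array. NKD2, an intracellular inhibitor, was at -2.54 ± 0.23. The receptor FZD3 was at -1.41 ± 0.16. In the TGF-beta and BMP family the ligands BMP2 (-1.60 ± 0.14), TGFB3 (-1.59 ± 0.14) and TGFB2 (-1.18 ± 0.16) were higher in SKNMC. BMP7 was higher in TC32, at 6.92, 6.92 and 6.43 against 4.77, 4.86 and 4.85 (1.93 ± 0.15). The target gene ID3 was at -1.15 ± 0.13, and -0.91 without between-array normalization. Notch and hedgehog genes gave 1 call for each line among 16. HEY1, a Notch effector, was at 2.08 ± 0.13, and HES6, a helix-loop-helix factor of the HES family, at -1.07 ± 0.12. CYP26B1, which degrades retinoic acid, was at -2.54 ± 0.13.

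Cancer-testis genes differed by gene. MBD3L5 read 4.35, 4.60 and 6.95 in TC32 and 10.60, 10.62 and 10.49 in SKNMC (-5.27 ± 0.48, limma adjusted p = 4.89e-06), with a TC32 spread that came from replicate 3. Without that array the MBD3L5 difference was -6.06. Its paralogs are close to identical, so how much of the signal is its own cannot be said. CTCFL, a germ cell paralog of the insulator protein CTCF, was at least 4.42-fold and TEX15, a meiosis gene, at least 3.39-fold higher in SKNMC. SSX2 (1.40 ± 0.14) and SSX3 (1.18 ± 0.14), which resemble each other in sequence, were higher in TC32. Among imprinted genes 0 of 18 were called for TC32 and 3 for SKNMC: GRB10, PEG3 and MEG3. PEG3 was at least 2.89-fold higher and MEG3 at -1.57 ± 0.25. GRB10's probes differed by -2.70, -1.26 and -0.36, and its call was lost when any SKNMC array was left out, because the brightest probe then fell below the detection filter.

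Several broad groups had few calls or none, beside 5.37% called among all genes tested. For a short list 0 calls cannot be told apart from that share. The 12 tested genes of non-homologous end joining, which the kinase blocked by NU7441 serves, had 0 calls (median 0.21). Of these 12, PRKDC stood at 8.22, 8.0 and 8.0 in TC32 and at 8.17, 7.99 and 8.08 in SKNMC (-0.0050 ± 0.12, limma adjusted p = 0.983), XRCC6 at -0.10 ± 0.13 and XRCC5 at 0.42 ± 0.12. The 70 cytosolic ribosomal protein genes had 1 call, RPL14 (1.31 ± 0.13, and 0.93 by the mean of its probes), and the 72 oxidative phosphorylation genes 1, ATP5MK (1.23 ± 0.12). Integrins had 0 calls of 11, with ITGB2 at 0.77 ± 0.15. Of 313 zinc finger genes 6 were called (1.92%). GAPDH (0.09 ± 0.13) and ACTB (-0.61 ± 0.15) were not called. Among 16 ABC transporters 3 were called for TC32, ABCA1 and the TAP genes, and among 30 xenobiotic enzymes 2 for each line. MGST1, a microsomal glutathione transferase, was at 1.46 ± 0.15, and the carboxylesterase CES1 at 1.06 ± 0.14. CES1 read 11.96 on SKNMC NU7441 replicate 1 and 4.21 and 4.37 on replicates 2 and 3 in the normalization of all 12 arrays, and the CES1 call was lost without SKNMC vehicle replicate 2 (0.95).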

How the data were processed

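Total RNA of vehicle-treated TC32 and SKNMC was measured on Illumina BeadChips, with 3 arrays per line, grouped by sample titles. Non-normalized bead intensities were deposited, per the file headers, each beside a detection p-value. A second deposited table holds log2 values of the submitters, whose steps are not given in the sources used; it served as an alternative. GenomeStudio, R 3.0.2 and lumi are listed in the submitters' processing notes.

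Intensities of the 6 vehicle arrays were normalized with neqc of limma 3.58.1 in R 4.3.3 (normexp background from detection p-values, offset 16, quantile normalization, log2). Quantile normalization hides a shift shared by most transcripts, and the number of arrays limits precision. A probe detected at p under 0.05 on at least 3 arrays was kept, and the brightest kept probe stood for a gene. Of 47319 probes, 30112 had 1 gene symbol in the platform annotation, 8 several and 17199 none; 30073 symbols were updated through RefSeq. Kept probes of 9 genes differed in opposite directions. No array pair was identical, and 0 columns were left unused.

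A limma model with a mean per line gave two-sided moderated tests with Benjamini-Hochberg adjustment over all 11023 genes; errors on differences are SE. The pipeline was tested on simulated data. A gene was restricted to a line when detected at p under 0.01 on its 3 arrays and, over all kept probes, at p of 0.05 or more on the others. Named genes were the 10 widest called differences per direction among genes detected on all 6 arrays, the 10 largest bounds per line among restricted genes, up to 4 called genes per list and direction, and genes fixed by name. Genes ranked by difference or by bound also had to show no overlap between the lines, so their lack of overlap is no result. Of the genes fixed by name, CES1, ITGB2, ALDH1A1, TGFBI and ACTA2 were taken because they stood apart on the SKNMC NU7441 arrays in earlier results. Further members of lists are given as examples chosen with values seen. The lists came from general knowledge and gene families, and members and lists were chosen with earlier results of these data known, so no test was made over a list. Alternatives covered normalization, background, filter, probe summary, all 12 arrays in the fit, replicate block and leaving out each array. Deviations of arrays with the same replicate number correlated at -0.03, 0.03 and 0.01, so the numbers do not pair the samples. NR0B1 had no probe symbol and is not analysed here; further items are not reported here.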

Additional observations from a re-analysis of the deposited data

Results flagged for a closer look

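Signals on the NU7441 arrays, which took no part in the comparison, differed from the restriction seen under vehicle. Of the 209 genes restricted to SKNMC, 31, 35 and 30 were detected on TC32 NU7441 replicates 1, 2 and 3, although they were detected on 0 TC32 vehicle arrays by construction. Of the 16 genes restricted to TC32, 1 was detected on SKNMC NU7441 replicate 1 and 1 on replicate 3. The SKNMC set was detected in larger number on the arrays of its own line under NU7441, with 154, 142 and 145 of 209. The TC32 set was detected for 5, 7 and 4 of 16 genes on the TC32 NU7441 arrays. Detection at p under 0.05 also passes some probes without signal, and the part of NU7441 in these detections was not tested.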

How the results depend on the processing

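With the replicate number as a block 592 genes were called, with 211 higher in TC32 and 381 in SKNMC, and it changed no call. The total moved by over 1.5 times without background correction (182, as 49 and 133), with the submitters' values (166, as 46 and 120), without a fold minimum (3404, as 1600 and 1804) and with a log2 minimum of 2 (116, as 17 and 99). With detection on all 6 arrays 223 genes were called higher in SKNMC. On leaving out single arrays the total ranged from 503 to 673. Genes restricted to TC32 numbered 53 with the bright line at p under 0.05, 67 with the dim line at p of 0.01 or more, and 18 to 31 on leaving out single arrays. Uncalled genes turned in sign. With no between-array normalization or with median scaling, in that order, CCND1 stood at 0.25 and 0.22, EWSR1 at 0.13 and 0.11, MYCN at 0.11 and 0.0878, PRKDC at 0.14 and 0.11, and XRCC6 at 0.18 and 0.16. CCND1 was at 0.03 in the submitters' values, and by the mean of the probes PRKDC was at 0.0576 and XRCC6 at 0.13. On leaving out single arrays MYCN ranged from -0.0363 to 0.0657 and PRKDC from -0.0762 to 0.0404. Where the construction of an alternative does not show the cause, the cause was not tested. Of 141 named genes called, 84 lost the call under at least 1 alternative in which they were tested, and 0 turned in sign. An alternative whose filter dropped a gene was not counted for that gene, so the 84 leaves such losses out. Genes detected only on the 3 SKNMC arrays, such as NCKAP1L, were not tested when an SKNMC array was left out or detection on all 6 arrays was required. The alternatives include the log2 minimum of 2, under which every call with a difference below 2 in size is lost by construction. Genes below detection in 1 line have only a bound there.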

Other observations

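Adhesion genes beyond those described differed in both directions. Of 24 cadherins and protocadherins, 3 were called higher in TC32 and 6 in SKNMC (37.5% called). PCDH20 was at least 3.17-fold higher in SKNMC, PCDH18 was at -1.79 ± 0.19 and CDH12 at -1.69 ± 0.19. PCDH19 was at 1.30 ± 0.15 in the direction of TC32. CDH10 (1.02 ± 0.13) lost its call without TC32 replicate 2 (0.92), and PCDH7 (1.11 ± 0.23) was at 0.75 without TC32 replicate 3. CLDN1, a tight junction protein known from epithelia, read 6.90, 7.0 and 6.69 in TC32 and 9.88, 10.29 and 10.05 in SKNMC (-3.21 ± 0.14), with no overlap. Of the 3 epithelial markers, EPCAM was detected on 2 TC32 and 3 SKNMC arrays (-0.73, not called) and KRT19 on 1 SKNMC array. CDH1 was detected on no array. Their summed level above the offset was 11.2 to 17.3 intensity units on the TC32 arrays and 22.3 to 36.8 on the SKNMC arrays.

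Among 9 FET and ETS genes tested, 0 were called for TC32 and 3 for SKNMC: ELF1 (-1.75 ± 0.13), ETV5 (-1.17 ± 0.14) and ETS2 (-1.02 ± 0.12), the last of which was at -0.98 without TC32 replicate 3. Neuronal genes were called in each direction in 2 of 21 cases. Beside NCAM1, SCG2 and NPY, TUBB3, a neuronal tubulin, read 6.77, 6.90 and 7.77 in TC32 and 8.22, 8.48 and 8.39 in SKNMC (-1.22 ± 0.22). FABP7, a fatty acid-binding protein of radial glia, was at 1.48 ± 0.16, and PROM1, a stem cell surface protein, at least 2.01-fold higher in SKNMC. Of 33 ion channel genes, KCNS3 (2.04 ± 0.15, and 1.33 by the mean of its probes) and CACNG3 (1.28 ± 0.18) were higher in TC32, and CACNA1H, a T-type calcium channel, was at least 5.38-fold higher in SKNMC. CD79A, known from B cells, was detected on all arrays at -2.30 ± 0.12, while PTPRC and CD3E were detected on none.

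Medians and calls varied between chromosomes, by the gene locations of RefSeq. On chromosome 13 the median difference of 199 tested genes was -0.31, with 4 calls for TC32 and 24 for SKNMC. On chromosome 10 it was 0.25 over 412 genes, with 13 and 5 calls. Over all genes tested 1.91% were called higher in TC32 and 3.46% in SKNMC. Uneven calls were not particular to these chromosomes, with 9 and 32 of 401 genes on chromosome 8 and 2 and 18 of 350 on chromosome 14. Chromosome 15 had 7 and 4 of 352. Medians of the other chromosomes lay between -0.18 (chromosome 8) and 0.12 (chromosome 15). These are descriptions without a test, and copy number was not measured.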
